A study of Drosophila melanogaster with 6 samples.

Results

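The genes described here encode the proteins of the mitochondrial ribosome in Drosophila S2 cells, a cultured line derived from embryos with properties of macrophage-like blood cells. They were chosen by name: every gene whose current symbol is mRpL or mRpS followed by a number and that had a probe set of its own on the array. That gave 69 of the 11981 genes measured, 44 of the large subunit (mRpL) and 25 of the small subunit (mRpS). The RefSeq gene table holds 73 such symbols, and the other 4 were not measured on their own: mRpS10 and mRpL53 were on a probe set shared with another gene, and mRpL34 and mRpL37 were not listed in the probe annotation used here. The study compared 3 groups of 2 samples, each sample on 1 Affymetrix array: NELF-depleted cells, harvested 96 h after double-stranded RNA against both NELF-B and NELF-E was added; mock cells, 96 h after double-stranded RNA against β-galactosidase; and untreated cells with no double-stranded RNA. All 3 groups were labelled as the same DGRC S2 cells, so no difference in genotype is given. NELF-depleted and mock cells differ in the RNA added, while for untreated cells the labels also give no time. NELF, the negative elongation factor, is a protein complex that keeps newly started RNA polymerase II paused near the promoter, and the study depleted it to see which mRNAs change.

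Mitochondria keep a small genome of their own and translate its few mRNAs, which encode core subunits of the respiratory chain and ATP synthase, on ribosomes built inside the organelle. The ribosomal RNAs come from the mitochondrial genome, whereas all the ribosomal proteins of animal mitochondria are encoded in the nucleus, made in the cytosol and imported. The small subunit reads the mRNA and the large subunit forms the peptide bonds. Many of the proteins have counterparts in bacterial ribosomes, and others are found only in mitochondria.

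Levels below are log2 of the intensity plus a small offset, after the 6 arrays were quantile normalized to a common distribution, and a difference of 1 is a doubling. A probe set was taken as above background when its mean level exceeded 3.88, the 95th percentile of 17 control probe sets with no target in the sample. All 69 genes were above that line on all 6 arrays, with mean levels between 7.95 and 11.17. The deposited intensities behind these levels ran between 169 and 2857. Because probe sets differ in brightness for the same amount of RNA, no level of one gene was set against that of another.

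The targeted genes fell. Nelf-E stood at 5.90 and 5.74 in NELF-depleted cells, 8.16 and 8.27 in mock cells and 8.15 and 8.39 in untreated cells (log2 fold change against mock -2.40 ± 0.16, SE; limma adjusted p = 7.37e-05). NELF-B was lower than in mock by a log2 fold change of -1.94 (limma adjusted p = 0.000284). TH1, the fly NELF-D subunit, was not targeted and had a log2 fold change of 0.40 (limma adjusted p = 0.244). The list also named NELF-A, which had no probe set of its own. Of 10 markers of blood cells, 8 were above background and NimC1 and Sr-CI were not, while 1 of 8 measured markers of other cell types was above it, the neuronal gene elav at 5.97 to 6.95 on the 6 arrays. Of these 10, 6 had values above 0 against mock and 4 below, with a median of 0.066, and Hml, the highest of those above background, was at 1.23 (limma adjusted p = 0.246). The 2 that passed the test, eater and drpr, were lower in NELF-depleted than in mock cells, with log2 fold changes of -0.87 for each (limma adjusted p = 0.017 and 0.00301). The medians of the deposited intensities lay at 11.7 to 14.2 units over the 6 arrays, and both NELF-depleted arrays had the lowest, so the arrays were brought to a common scale.

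Against mock cells, the mRNAs for mitochondrial ribosomal proteins in NELF-depleted cells had a narrow band of small differences, most of them below 0. None of the 69 passed the test (limma with 3 group means, Benjamini-Hochberg adjustment over all 11981 genes, adjusted p under 0.05), where 1.35% of all genes (162 genes) and 2.48% of genes above background did. At an unadjusted p under 0.05 there were 8 of the 69, 2 higher and 6 lower, against 11% of all genes and 14.4% of genes above background in either direction. A single prior variance in place of one that depends on intensity also called 0 of the 69, and 0 of all genes. The median log2 fold change was -0.092 over the 69 genes and 0.012 over all genes. The value was below 0 for 57 of the 69, or 82.6%, against 47.5% of the 6532 genes above background. In RNA from a whole culture, fewer cells with a given mRNA and less of it per cell cannot be told apart.

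With quantile normalization, the intervals bounded the differences as follows. For 60 of the 69 genes the 95% interval of the difference against mock lay wholly within a 1.5-fold change in either direction, and for all 69 it lay within 2-fold, where 64.3% and 82.6% of genes above background did so. The 9 whose interval crossed 1.5-fold were mRpL21, mRpL32, mRpL43, mRpL51, mRpL55, mRpS14, mRpS22, mRpS24 and mRpS29. The middle 50% of the 69 spanned 0.098 on the log2 scale, against 0.280 for all genes above background. Among lists described below it spanned 0.105 for cytosolic ribosomal proteins and 0.149 for mitochondrial translation factors and tRNA synthetases. It was 0.290 for mitochondrial transcription and RNA processing, 0.259 for the respiratory chain and 0.377 for protein import, the last 2 with genes below background. No set of genes matched to the members in level was compared. The standard errors of the 69 had a median of 0.113. These bounds belong to that scale: on the hybridization controls mRpL16, one of the 60, was at -0.66 (limma adjusted p = 0.00657) and the members' median at -0.51.

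**Figure D1:**
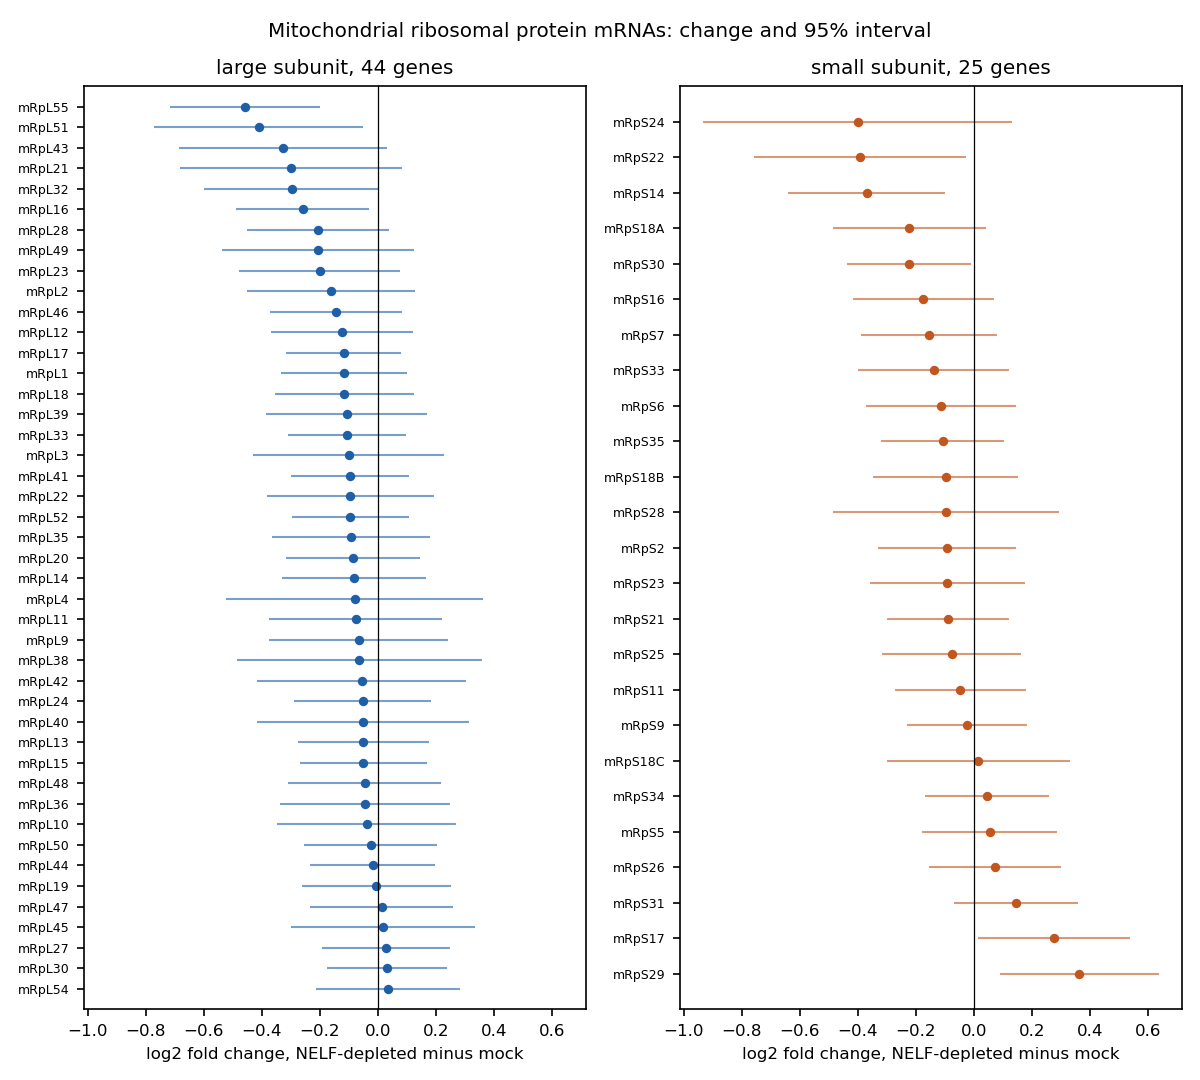
Log2 fold change of each of the 69 mitochondrial ribosomal protein genes, NELF-depleted minus mock (horizontal axis; points), with its 95% interval from limma (lines; 2 arrays per group). The 44 large-subunit genes are on the left and the 25 small-subunit genes on the right, each ordered by value; the large subunit spans -0.46 for mRpL55 to 0.034 for mRpL54, and the small subunit -0.40 for mRpS24 to 0.36 for mRpS29.

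The 2 subunits had almost the same median against mock, -0.089 for the 44 large-subunit genes and -0.092 for the 25 small-subunit genes, a difference of 0.0024. They differed in spread against mock: the middle 50% spanned 0.080 in the large and 0.170 in the small subunit. With mRpS18A and mRpS30 counted as large, these were 0.107 and 0.157. Against untreated cells the spans were nearly equal, 0.126 in the large and 0.121 in the small subunit, and against both controls 0.105 and 0.123. The largest log2 fold change against mock in the large subunit was 0.034, whereas the small subunit reached 0.36. Below 0 were 39 of 44 large-subunit genes and 18 of 25 small-subunit genes. All 3 genes whose NELF-depleted arrays both lay above both mock arrays were of the small subunit, and 12 large-subunit and 9 small-subunit genes had both NELF-depleted arrays below both mock arrays. Such separation is common with 2 arrays a group, since 19.8% of all genes were separated upward and 19.4% downward, and 22.6% and 21.1% of genes above background. These comparisons of subunits are descriptions, with no test.

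In the large subunit, the lowest values belonged to proteins of different kinds. mRpL55, a mitochondrial protein with no bacterial counterpart, stood at 9.41 and 9.36 in NELF-depleted, 9.76 and 9.93 in mock and 10.02 and 9.72 in untreated cells. Both NELF-depleted arrays lay below all 4 control arrays. The log2 fold change was -0.46 ± 0.12 (SE) against mock, which is 72.8% of the mock level (limma adjusted p = 0.12), and -0.48 against untreated cells (limma adjusted p = 0.097). Against the mean of both controls it was -0.47 ± 0.10 (SE), and there mRpL55 was the only member that passed (limma adjusted p = 0.0436), where 2.06% of all genes did. At an unadjusted p under 0.05 there were 6 members in that comparison, all lower. In either direction, 12% of all genes and 1090 of the 6532 above background reached it.

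The mRpL55 call was close to its threshold. It was lost with a single prior variance (limma adjusted p = 0.424), with the values as deposited (0.121), with arrays centred on their medians (0.218), with larger log2 offsets (0.0571 for the 25th percentile of intensities, 0.112 for 50 units) and in 5 of the 6 fits that left out 1 array, the exception being untreated replicate 2. Over those 6 fits the adjusted p ran from 0.0271 to 0.387, and the log2 fold change stayed below 0 in each.

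mRpL51, also found only in mitochondria, had 9.06 and 8.81 in NELF-depleted, 9.24 and 9.45 in mock and 9.58 and 9.07 in untreated cells. It too was lower on both NELF-depleted arrays than on all 4 control arrays, narrowly so against untreated replicate 2, with a log2 fold change of -0.41 ± 0.16 (SE) against mock (limma adjusted p = 0.374). mRpL43, a further mitochondria-specific protein, had 8.37 and 7.84 in NELF-depleted, 8.42 and 8.45 in mock and 8.17 and 8.25 in untreated cells. The NELF-depleted arrays of mRpL43 fell on both sides of the untreated ones, and the log2 fold change was -0.33 against mock and -0.098 against untreated cells.

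mRpL16, the counterpart of a bacterial protein beside the peptidyl transferase centre, where peptide bonds form, had 11.01 and 11.05 in NELF-depleted, 11.17 and 11.41 in mock and 11.25 and 11.15 in untreated cells. Its NELF-depleted arrays were close together and below all 4 controls, and the log2 fold change was -0.26 ± 0.10 (SE) against mock (limma adjusted p = 0.382) and -0.17 against untreated cells. mRpL32, whose yeast counterpart is cut by a mitochondrial protease before it joins the ribosome, had 8.74 and 8.57 in NELF-depleted, 9.09 and 8.81 in mock and 9.01 and 8.73 in untreated cells. The arrays of mRpL32 separated from mock but not from untreated cells. mRpL21 had 9.05 and 8.77 in NELF-depleted, 9.03 and 9.38 in mock and 9.27 and 8.80 in untreated cells, and overlapped both controls. The log2 fold changes of mRpL32 and mRpL21 against mock were both -0.30.

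The 6 highest values in the large subunit were all near 0. mRpL54, known only from mitochondria, had 8.81 and 8.89 in NELF-depleted, 8.71 and 8.92 in mock and 8.80 and 8.91 in untreated cells, a log2 fold change of 0.034 against mock. mRpL27, whose bacterial counterpart reaches into the peptidyl transferase centre, had 9.14 and 9.10 in NELF-depleted, 9.16 and 9.02 in mock and 9.01 and 8.99 in untreated cells, a difference of 0.028 against mock. mRpL30 was at 0.031, mRpL45, which in mammals sits at the exit of the nascent chain, at 0.016, mRpL47 at 0.013 and mRpL19 at -0.0058. All 6 genes had NELF-depleted arrays that overlapped the mock arrays. The sign of each of the 6 turned under another scaling or with 1 array left out.

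Some large-subunit proteins were also grouped by where their bacterial or mammalian counterparts sit. The groups were drawn up after the values were seen and do not hold every protein of each place. For 5 proteins around the peptidyl transferase centre, mRpL2, mRpL3, mRpL4, mRpL16 and mRpL27, the median log2 fold change against mock was -0.10. Their range was -0.26 to 0.028. For 4 at the polypeptide exit, mRpL22, mRpL23, mRpL24 and mRpL45, the median was -0.073 and the range -0.20 to 0.016. For 3 of the stalk that recruits translation factors, mRpL10, mRpL11 and mRpL12, the median was -0.076 and the range -0.12 to -0.039.

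mRpL23, one of the exit proteins, had 10.34 and 9.96 in NELF-depleted, 10.31 and 10.39 in mock and 10.52 and 10.36 in untreated cells, with log2 fold changes of -0.20 against mock and -0.29 against untreated cells. Its 2 NELF-depleted arrays lay farther apart than either control pair; this gene was chosen after its values were seen. mRpL3 had 8.28 and 8.33 in NELF-depleted, 8.21 and 8.60 in mock and 8.08 and 8.32 in untreated cells. The mock and untreated pairs of mRpL3 lay farther apart than its NELF-depleted pair, and the log2 fold change was -0.10 against mock and 0.10 against untreated cells.

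**Figure D2:**
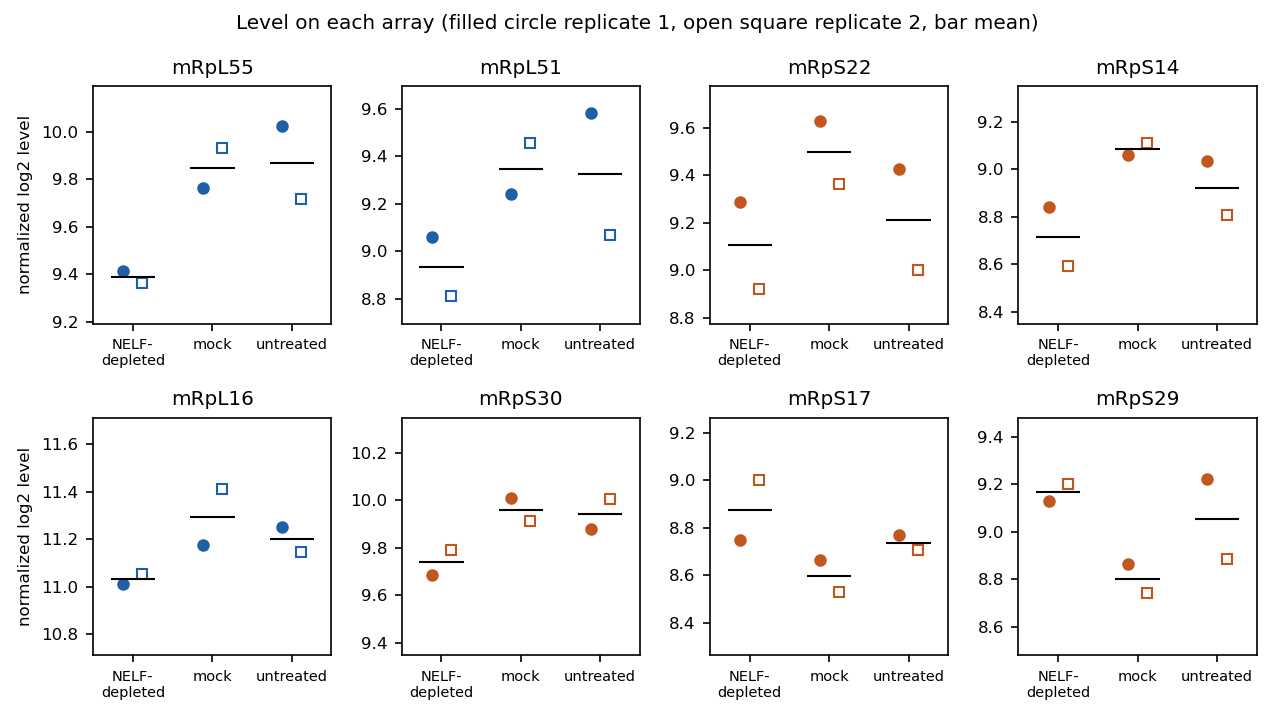
Normalized log2 level of 8 mitochondrial ribosomal protein genes on each of the 6 arrays, with NELF-depleted, mock and untreated cells from left to right (filled circles, replicate 1; open squares, replicate 2; bars, group means; blue, large subunit; orange, small subunit; each panel spans 1 log2 unit). Both NELF-depleted arrays lie below all 4 controls for mRpL55, mRpL51, mRpL16 and mRpS30, while mRpS29 and mRpS17 are above mock here (-0.053 and -0.14 against mock on the hybridization controls) and overlap untreated cells.

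The small subunit held both the lowest and the highest changes outside mRpL55 and mRpL51. mRpS24, whose human counterpart takes the place of bacterial ribosomal protein uS3, had 8.24 and 7.69 in NELF-depleted, 8.72 and 8.01 in mock and 8.60 and 8.22 in untreated cells. In each of the 3 groups its replicates lay far apart, with replicate 1 the higher, and the groups overlapped, although each NELF-depleted array was below the control arrays of the same number. The log2 fold change of -0.40 against mock therefore had the largest standard error of the 69, 0.240 (limma adjusted p = 0.623, and 0.141 with the replicate number as a block, whose meaning the labels do not give).

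mRpS22, which is specific to mitochondria, had 9.29 and 8.92 in NELF-depleted, 9.63 and 9.36 in mock and 9.43 and 9.0 in untreated cells. NELF-depleted arrays were below mock and overlapped untreated cells, with a log2 fold change of -0.39 ± 0.16 (SE) against mock (limma adjusted p = 0.412) and -0.11 against untreated. Mock itself was 0.28 above untreated cells for mRpS22, the highest value of the 69 in that comparison. mRpS14, a protein of the head of the small subunit, had 8.84 and 8.59 in NELF-depleted, 9.06 and 9.11 in mock and 9.03 and 8.81 in untreated cells. Its 2 mock arrays lay close together and above the other 4, and its log2 fold change was -0.37 ± 0.12 (SE) against mock (limma adjusted p = 0.261) and -0.20 against untreated cells.

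At the other end, mRpS29, a GTP-binding protein known in mammals as death-associated protein 3, had 9.13 and 9.20 in NELF-depleted, 8.86 and 8.74 in mock and 9.22 and 8.89 in untreated cells. The NELF-depleted arrays were above mock but within the range of untreated cells. Its log2 fold change was 0.36 ± 0.12 (SE) against mock (limma adjusted p = 0.277; -0.053 when spiked-in hybridization controls set the scale) and 0.11 against untreated cells, and mock was below untreated by 0.25, the lowest of the 69 in that comparison. mRpS17, a counterpart of a bacterial protein of the subunit's body, had 8.75 and 9.0 in NELF-depleted, 8.67 and 8.53 in mock and 8.77 and 8.71 in untreated cells. It repeated the pattern of mRpS29, with 0.28 ± 0.12 (SE) against mock (limma adjusted p = 0.422; -0.14 on the hybridization controls) and 0.14 against untreated cells, whose arrays overlapped the NELF-depleted ones.

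mRpS31, another protein specific to mitochondria, was the only member with both NELF-depleted arrays above all 4 controls: 9.57 and 9.45 in NELF-depleted, 9.33 and 9.39 in mock and 9.32 and 9.26 in untreated cells. Separation from all 4 controls upward was seen for 11.1% of all genes, and downward, as for 7 members, for 11%. Of the 6532 genes above background, 937 were separated upward and 911 downward. The log2 fold change of mRpS31 was 0.15 ± 0.10 (SE) against mock (limma adjusted p = 0.659; -0.27 on the hybridization controls) and 0.22 against untreated cells. mRpS26 had 8.90 and 8.98 in NELF-depleted, 8.80 and 8.94 in mock and 8.77 and 8.77 in untreated cells, 0.074 against mock and 0.17 against untreated. mRpS5 had 10.34 and 10.59 in NELF-depleted, 10.41 and 10.41 in mock and 10.51 and 10.63 in untreated cells, 0.054 against mock and -0.10 against untreated. Both overlapped mock, the sign for mRpS5 depended on the control, and on the hybridization controls both were below 0 against mock.

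The mRpS18 family has 3 members in flies as in mammals, where the proteins of the same names sit at different places in the ribosome. mRpS18A had 9.56 and 9.31 in NELF-depleted, 9.69 and 9.63 in mock and 9.74 and 9.49 in untreated cells, a log2 fold change of -0.22 ± 0.12 (SE) against mock (limma adjusted p = 0.548). mRpS18B had 9.38 and 9.36 in NELF-depleted, 9.32 and 9.62 in mock and 9.56 and 9.47 in untreated cells, -0.097 against mock, on a probe set of a type that can match transcripts of more than 1 gene. mRpS18C had 8.09 and 8.11 in NELF-depleted, 7.97 and 8.19 in mock and 8.17 and 7.86 in untreated cells, 0.016 against mock (-0.066 with values as deposited). Only mRpS18A was separated from mock, and the differences between the 3 were not tested.

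In mammals MRPS18A and MRPS30 were found in the large subunit in spite of their names. mRpS30 had 9.69 and 9.79 in NELF-depleted, 10.01 and 9.91 in mock and 9.88 and 10.01 in untreated cells. It was below all 4 controls, with -0.22 ± 0.10 (SE) against mock (limma adjusted p = 0.431) and -0.20 against untreated cells. Counting mRpS18A and mRpS30 with the large subunit gave medians of -0.094 for 46 genes and -0.091 for the remaining 23, and left all 3 upward-separated genes in the small subunit. Some small-subunit proteins were likewise grouped by position after the values were seen, and the groups do not hold every protein of each place. For the head proteins mRpS7, mRpS9 and mRpS14 the median against mock was -0.15 and the range -0.37 to -0.024. For the platform proteins mRpS6, mRpS11, mRpS18C and mRpS21 the median was -0.068 and the range -0.11 to 0.016. For the body proteins mRpS5, mRpS16 and mRpS17 the median was 0.054. The subunit's lowest and highest genes, mRpS24 at -0.40 and mRpS29 at 0.36, were in none of these groups. The body group ran from -0.17 for mRpS16 to 0.28 for mRpS17, with mRpS5 between them as the median.

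Only 2 genes had 2 probe sets, which allows a check within a gene. For mRpS11 they gave -0.047 and -0.012 against mock, and for mRpL47 0.013 and 0.039. The 2 probe sets of a gene thus differed by less than the median standard error.

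Against untreated cells, which received no double-stranded RNA, none of the 69 passed the test (limma adjusted p under 0.05), where 1.41% of all genes did. At an unadjusted p under 0.05 there were 5 members, 4 of them lower. In either direction, 10% of all genes and 871 of the 6532 above background reached it. The median log2 fold change of the 69 was -0.073, with 49 below 0, and it was -0.082 in the large and -0.032 in the small subunit. The lowest were mRpL55 at -0.48, mRpS24 at -0.45 and mRpL51 at -0.39, and the highest mRpS31 at 0.22, mRpS26 at 0.17 and mRpS17 at 0.14. The comparisons with mock and with untreated cells share the NELF-depleted arrays, so their likeness is partly built in.

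Mock against untreated cells compares cells with and without double-stranded RNA, since β-galactosidase of bacteria is the target in mock cells. The labels give 96 h for mock and no time for untreated cells, so the RNA and other handling cannot be told apart. Again none of the 69 passed the limma test, nor did any other gene (0% of 11981). An unadjusted p under 0.05 was reached by 3.41% of all genes and 87 of the 6532 above background, and by none of the 69. The median was 0.030 (-0.32 with values as deposited and -0.21 after centring on array medians, where the median of all genes was -0.31 and -0.21), with 30 of 69 below 0 (69 as deposited, 68 after centring on array medians and 23 on the hybridization controls), and it was 0.019 in the large and 0.068 in the small subunit. Behind mRpS22 the highest were mRpL43 at 0.23 and mRpL3 at 0.20, and behind mRpS29 the lowest were mRpS5 at -0.16 and mRpS17 at -0.14. Both mock arrays were above both untreated arrays for 11 members and below for 4, against 14.2% of all genes in each direction.

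The shift of the 69 genes as a group was about the size of the gap between replicate arrays. The median deviation of the 69 genes from their own means was -7.4e-05 and -0.089 in NELF-depleted, -0.0035 and 0.076 in mock and 0.065 and -0.028 in untreated cells. NELF-depleted replicate 1 lay among the control arrays, and the lowest array was NELF-depleted replicate 2. Without NELF-depleted replicate 1 the median against mock was -0.131 with 55 below 0, without mock replicate 1 it was -0.137 with 57 below 0, and without untreated replicate 2 the median against untreated cells was -0.095 with 56 below 0. Leaving out the other array of each pair gave smaller values. Without NELF-depleted replicate 2 the median against mock was -0.045, with 47 genes below 0, and against untreated cells it was -0.00091, with 35 below 0. Without mock replicate 2 the median against mock was -0.054 with 44 below 0, and without untreated replicate 1 the median against untreated cells was -0.015 with 40 below 0. Replicates of 1 group also differed one way for most members: in NELF-depleted cells 45 of 69 were higher in replicate 1, in mock cells 26, and in untreated cells 50.

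The calls depended on the scale chosen to make the arrays comparable. When spiked-in hybridization controls set the scale in place of quantile normalization, the median of all genes against mock was -0.41 and that of the 69 members -0.51, and 47 members passed as lower against mock, 29 against untreated cells and 57 against both. The backgrounds were then 15%, 10.5% and 22.1% of all genes. Relative to the median of all genes, the members' median against mock was -0.104 with quantile normalization, -0.089 as deposited, -0.084 after centring on array medians and -0.104 on the hybridization controls. For mock against untreated cells the same quantity was 0.031 with quantile normalization, -0.0048 as deposited, -0.0033 after centring on array medians and 0.0037 on the hybridization controls. The members' median was below that of all genes against mock under each of the 4 scalings. Between the 2 controls its side of the median of all genes depended on the scaling. Relative to the median of genes above background, its side between the 2 controls did not. There it was 0.030 with quantile normalization, 0.023 as deposited, 0.023 after centring on array medians and 0.024 on the hybridization controls. Against mock the values were -0.104, -0.0997, -0.0996 and -0.101 in that order. The scalings other than quantile normalization differ by a factor per array, which nearly cancels in such differences. They therefore do not count as separate results.

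**Figure D3:**
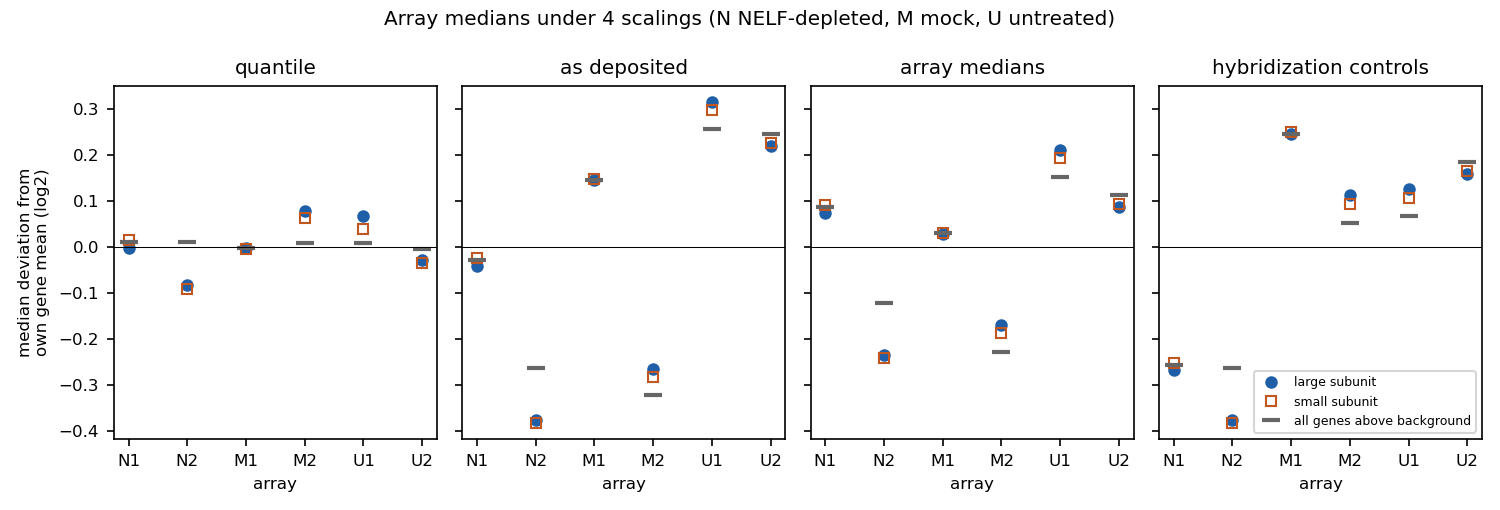
Median deviation, in log2 units, of large-subunit genes (blue circles), small-subunit genes (orange squares) and all genes above background (grey bars) from each gene's mean over the 6 arrays, for NELF-depleted (N), mock (M) and untreated (U) replicates 1 and 2, under 4 scalings. The subunits lie close together on every array under each scaling, and NELF-depleted replicate 2 is the array where both lie farthest below all genes.

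Other mitochondrial genes were described for comparison. 2 small-subunit proteins have names outside the mRp scheme: tko, the counterpart of bacterial S12, had a log2 fold change of -0.14 against mock (limma adjusted p = 0.661), and bonsai, the counterpart of S15, one of -0.0050. Of 26 measured mitochondrial translation factors and tRNA synthetases (of 32 listed) none passed against mock, their median was -0.021 and 14 were below 0. They ran from -0.36 for SerRS-m, which charges tRNA with serine, to 0.20 for the elongation factor mEFTs. Of 14 measured genes of mitochondrial transcription and RNA processing (of 18), none passed, the median was 0.074, and the range ran from -0.23 for bsf, a relative of the mammalian RNA-binding protein LRPPRC, to 0.35 for rswl.

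The respiratory chain and ATP synthase, which hold the products of the mitochondrial ribosome, had a median of -0.082 over 75 measured nuclear genes (of 94), 54 of them above background, with 52 below 0 and none called against mock. 1 of them was called lower against untreated cells and against both controls: ND-B16.6, a subunit of complex I, had 9.64 and 9.63 in NELF-depleted, 9.95 and 9.95 in mock and 10.22 and 10.05 in untreated cells. Its log2 fold change was -0.50 against untreated cells (limma adjusted p = 0.0287) and -0.41 against both (limma adjusted p = 0.0283). The extremes of that list against mock, UQCR-11L at 1.55 and SdhBL at -1.32, were below background. Mitochondrial protein import had a median of -0.0067 over 14 measured genes (of 16), none called, with 10 above background and both extremes, Tim17b2 at 1.39 and Tim13 at -0.77, below it.

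For the ribosome of the cytosol, 40 of 92 genes had a probe set of their own, none was called against mock, and the median was -0.0078 with 22 below 0. The lowest was RpS19b, at 7.11 and 7.37 in NELF-depleted, 7.79 and 8.03 in mock and 7.79 and 7.65 in untreated cells (limma adjusted p = 0.083), and the highest, RpL22-like at 1.58, was below background. The list whose median was nearest to the -0.092 of the mitochondrial ribosome was that of the respiratory chain, and differences between lists were not tested.

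**Figure D4:**
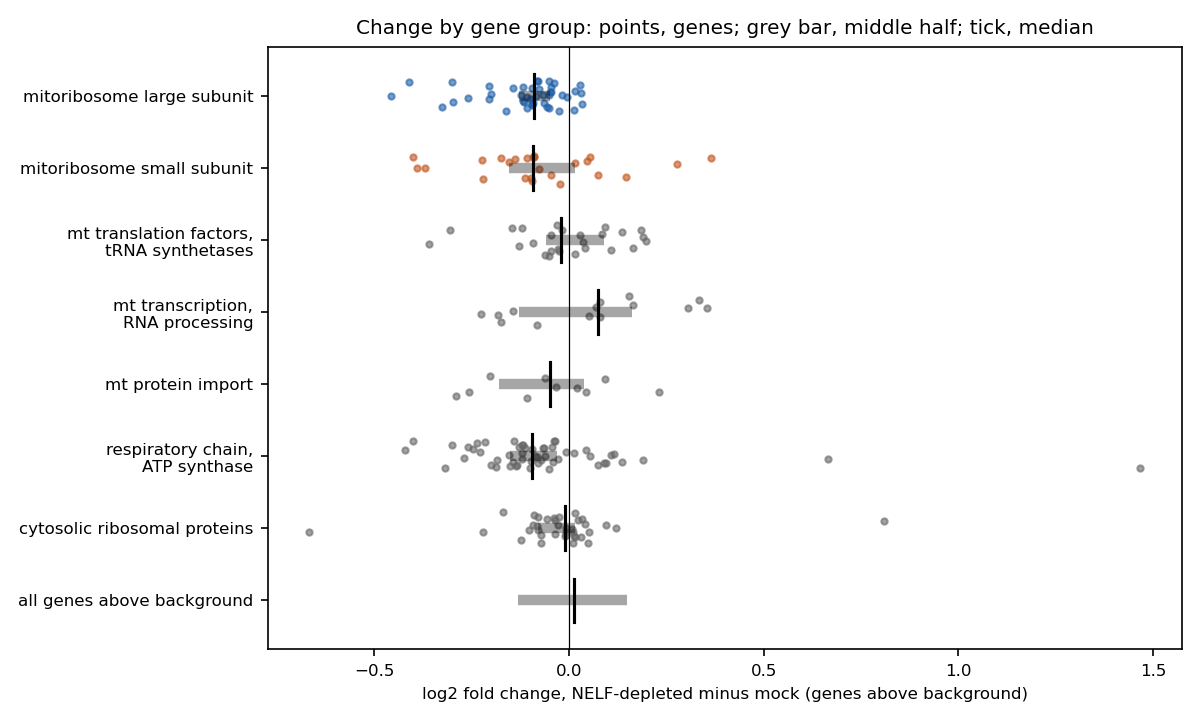
Log2 fold change, NELF-depleted minus mock, of genes above background in each group (points), with the middle 50% (grey bar) and the median (tick). The medians of both mitoribosome subunits, -0.089 and -0.092, lie left of 0, and all genes above background are shown by their median and middle 50% alone.

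Many genes of the mitochondrial ribosome lie close to other genes in the compact fly genome. In the RefSeq order of genes, 41 of the 69 overlap another protein-coding gene, and no member is the neighbour of another member. How common such overlap is among all protein-coding genes was not counted. Of 43 overlapping partners 39 were measured, and 0 of these were called against mock, where 1.35% of all genes were, so the count is near the background. Zip71B, which overlaps mRpL39 and was below background, was the only partner called, against untreated cells and against both controls. mRpL55 overlaps no other protein-coding gene.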

How the data were processed

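Total RNA was hybridised to 1 Affymetrix Drosophila Genome 2.0 array per sample. The deposited table gives 1 linear intensity per probe set and array. Per the labels, scanning used either GeneChip Operating Software (1.2.0.037) or Command Console (1.1), followed by Rosetta Resolver (6.0); how probes were summarised, background-corrected and scaled is not given in the sources. No label calls the replicates separate cultures, so a p-value reflects the spread of these samples alone, which may be technical, and 2 arrays a group limit the precision.

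From the deposited intensities of 18952 probe sets, log2(value + 0.819) was taken (offset: 5th percentile, which understates changes of dim genes) and quantile normalized. The 183 control probe sets were left out, as were 402 listed with several genes and 4720 not listed. The 13647 with 1 gene gave 11981 genes, each by its brightest probe set. 11893 symbols were updated through a RefSeq gene table. Its coordinates gave the order and overlap of genes and are not printed, because the files name no build. limma 3.58.1 (R 4.3.3; lmFit, 3 group means, eBayes with trend, two-sided, Benjamini-Hochberg) was tested on simulated data. That simulation drew independent noise for each gene and array, with no shift of whole arrays. It therefore says nothing on the choice of scaling. Members, lists and the trend setting were chosen with earlier results of these data known. Every called member was named, with the 6 highest and 6 lowest large-subunit and 5 and 5 small-subunit changes against mock, the 3 highest and 3 lowest in other comparisons, the mRpS18 family, and the called and extreme genes of other lists. DAP3, listed apart, is mRpS29 and was counted as a member. The import list took symbols starting Tim or Tom and Roe1. Alternatives changed scaling, offset, filter, probe choice, prior, block, groups fitted and arrays left out.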

Additional observations from a re-analysis of the deposited data

How the results depend on the processing

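With 2 arrays a group, only changes well above the median standard error of 0.113 could be called. Members called against mock were 0 in each setting run except the hybridization controls (47); against untreated cells likewise (29). Against both controls the count of 1 became 0 as deposited, with array medians, with offsets of the 25th percentile and of 50 units and with a single prior, and 57 on the hybridization controls; leaving out 1 array gave 0 to 1. Median log2 fold changes of members against mock were -0.16 as deposited, -0.017 with array medians and -0.51 on the hybridization controls; against untreated cells -0.48, -0.23 and -0.47, and -0.095 to -0.00091 with 1 array left out; against both controls -0.31 as deposited and -0.48 on the hybridization controls; and for mock against untreated cells -0.32 as deposited, -0.21 with array medians and -0.023 to 0.092 with 1 array left out.

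The large minus small subunit difference, reported as 0.0024 against mock, ran from -0.065 to 0.027 with 1 array left out. Against untreated cells (reported -0.049) it was -0.067 under each of the other 3 scalings and -0.049 to 0.022 with 1 array left out. Those 3 scalings differ by 1 factor per array, which nearly cancels in this difference, so they do not count as separate results. Against both controls (reported -0.018) it was -0.041 with mRpS18A and mRpS30 counted as large, an alternative added after seeing the data, and -0.034 to 0.024 with 1 array left out. For mock against untreated cells (reported -0.049) it was -0.026 as deposited, -0.025 with array medians and -0.025 on the hybridization controls, and -0.049 to 0.0023 with 1 array left out.

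Signs against mock turned as deposited for mRpL27 (-0.040), mRpL30 (-0.037), mRpL45 (-0.080), mRpL47 (-0.039), mRpL54 (-0.040), mRpS18C (-0.066) and mRpS26 (-0.0094); with array medians for mRpL19 (0.078); and on the hybridization controls for mRpL27 (-0.39), mRpL30 (-0.39), mRpL45 (-0.43), mRpL47 (-0.39), mRpL54 (-0.39), mRpS17 (-0.14), mRpS18C (-0.42), mRpS26 (-0.36), mRpS29 (-0.053), mRpS31 (-0.27) and mRpS5 (-0.34). With 1 array left out the ranges that crossed 0 were -0.044 to 0.033 for mRpL19, -0.044 to 0.10 for mRpL27, -0.30 to 0.096 for mRpL3, -0.021 to 0.084 for mRpL30, -0.13 to 0.16 for mRpL45, -0.039 to 0.066 for mRpL47, -0.071 to 0.14 for mRpL54, -0.24 to 0.050 for mRpS18B, -0.096 to 0.13 for mRpS18C and -0.074 to 0.18 for mRpS5. The cause of these changes was not tested.

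Counts of all genes called against mock (162, 130 lower) were 54 as deposited (53 lower), 52 with array medians (46 lower), 1800 on the hybridization controls (1786 lower), 74 with an offset of 50 units, 247 with only genes above the median level tested, 0 with a single prior and 65 to 127 with 1 array left out. Against untreated cells (169, 141 lower) they were 188 as deposited (187 lower), 123 with array medians (120 lower), 1259 on the hybridization controls (1250 lower), 89 with an offset of 50 units, 0 with a single prior and 70 to 146 with 1 array left out. Against both controls (247, 194 lower) they were 173 (170 lower), 140 (131 lower), 2650 (2627 lower), 155, 0 and 98 to 186 in the same order. Same-numbered samples deviated together only weakly (correlations 0.156, 0.158 and 0.145), and nothing says what the numbers mark. With a replicate block 271, 270 and 361 genes were called against mock, untreated and both controls, and 0, 0 and 1 members. Fitting only the arrays of the groups compared gives no further value for both controls, which use all 6.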
